A study of Homo sapiens with 4 samples.

Results

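The genes described here encode the proteins that hold epithelial cells together, the keratins of their cytoskeleton, and the factors and markers of the epithelial to mesenchymal transition (EMT). They were chosen by name: 43 genes of the 43622 in the deposited expression table. They comprise 3 classical cadherins, 7 tight junction genes, 8 desmosomal genes, 10 keratins, 6 epithelial regulators, 5 EMT transcription factors, 2 mesenchymal markers and 2 surface glycoproteins. RNA was sequenced from PC3 cells, an established human prostate cancer line, in 4 groups of 3 libraries each. Ctrl was PC3 with the genotype label wt, given the vehicle DMSO, and MLN was the same cells given MLN4924 at 1 µM. Cells with the genotype label Sh ARF, in which p14ARF had been silenced, were given DMSO (shARF) or 1 µM MLN4924 (Both), and every group was collected at 3 days. The silenced cells carried a stably integrated short hairpin RNA and were drug-selected, and no control hairpin in the wt cells is named in the sources used here. The text of the series describes the silenced cells as a knockout and the dose as 1 mM, whereas the sample labels and the methods give a hairpin and 1 µM. Each group is 1 sample with 3 library columns that nothing ties to separate cultures, so every p-value measures the spread between these libraries, which may be technical. In such bulk RNA, fewer cells of a kind and less RNA per cell cannot be told apart.

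Epithelial cells are joined by adherens junctions, built on classical cadherins that bind catenins, by tight junctions, built on claudins and occludin, and by desmosomes, in which desmocollins and desmogleins are tied through plakoglobin, plakophilins and desmoplakin to keratin filaments. In EMT, factors of the SNAI, ZEB and TWIST families lower E-cadherin and other epithelial genes, and vimentin, fibronectin and N-cadherin rise. MLN4924 blocks the enzyme that activates NEDD8, and so the cullin-RING ubiquitin ligases. p14ARF is a product of CDKN2A that restrains MDM2, the ligase of p53.

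CDKN2A, whose value pools the transcripts of p14ARF and p16INK4a, was at 177 to 190.1 TPM in Ctrl and 58.2 to 60.9 TPM in shARF, and its log2 fold change was -1.63 ± 0.0353 (adjusted p = 2.24e-05). With the drug it was at 100.4 to 133 TPM in MLN and 41.2 to 54.0 TPM in Both. TPM (transcripts per 1000000) is corrected for gene length and sums to the same total in every library, so it carries no depth. Fold changes are on the scale of log2(TPM + 0.1), the value after ± is the standard error, n is 3 libraries a group, and adjusted p-values are from limma over the 19932 genes that averaged 0.1 TPM or more. Of the markers of prostate cells, KLK3 and FOLH1 were at 0 in all 12 libraries, while HOXB13 was at 58.4 to 772 TPM. The basal markers TP63, KRT5 and KRT14 together stayed under 0.77 TPM. The 3 leukocyte markers summed to 161 to 230.3 TPM in Ctrl, 438 to 607 TPM in MLN, 73.7 to 94.8 TPM in shARF and 304 to 344 TPM in Both, nearly all of it CD68, with PTPRC at no more than 0.322 TPM. The 5 fibroblast markers summed to 13.6 to 15.9, 20.6 to 24.0, 59.3 to 68.7 and 21.6 to 23.6 TPM in the same order, with DCN at no more than 0.126 TPM. They did not move together. COL1A2 made up most of the shARF sum, at 49.3 to 59.1 TPM against 6.29 to 7.17 TPM in Ctrl. COL1A1 was at 3.56 to 4.61 TPM in shARF, below Ctrl, and highest in MLN, at 17.0 to 19.7 TPM. LUM was highest in Both, at 10.9 to 13.5 TPM. The 3 endothelial markers summed to 11.03 to 12.55 TPM in Ctrl and no more than 1.97 TPM elsewhere, mostly PECAM1, and the 3 neuroendocrine markers to 1.11 to 3.94 TPM. The part of these marker levels in the results below was not tested.

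In PC3 cells, MLN4924 moved most of these genes, in either direction. Of the 43 members, 40 passed the filter on low values and the other 3, KRT5, GRHL2 and OVOL1, were near 0 in every library. In MLN vs Ctrl, 16 members rose and 20 fell, that is 40% and 50% of the 40, beside 32.2% and 29.4% of all genes tested. Past 2-fold, 6 rose and 11 fell (15.6% and 12.4% of all genes). Among the 6 is KRT14, which was near 0, at 0 to 0.0685 TPM in Ctrl and 0.264 to 0.453 TPM in MLN. The median log2 fold change was -0.22 over the members and 0.05 over all genes. In the silenced cells, Both vs shARF, 10 members rose and 21 fell, with 28.3% and 32.8% of all genes called, and past 2-fold 5 rose and 15 fell (13.0% and 13.4%). Here the median was -0.37 over the members and -0.04 over all genes.

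**Figure D1:**
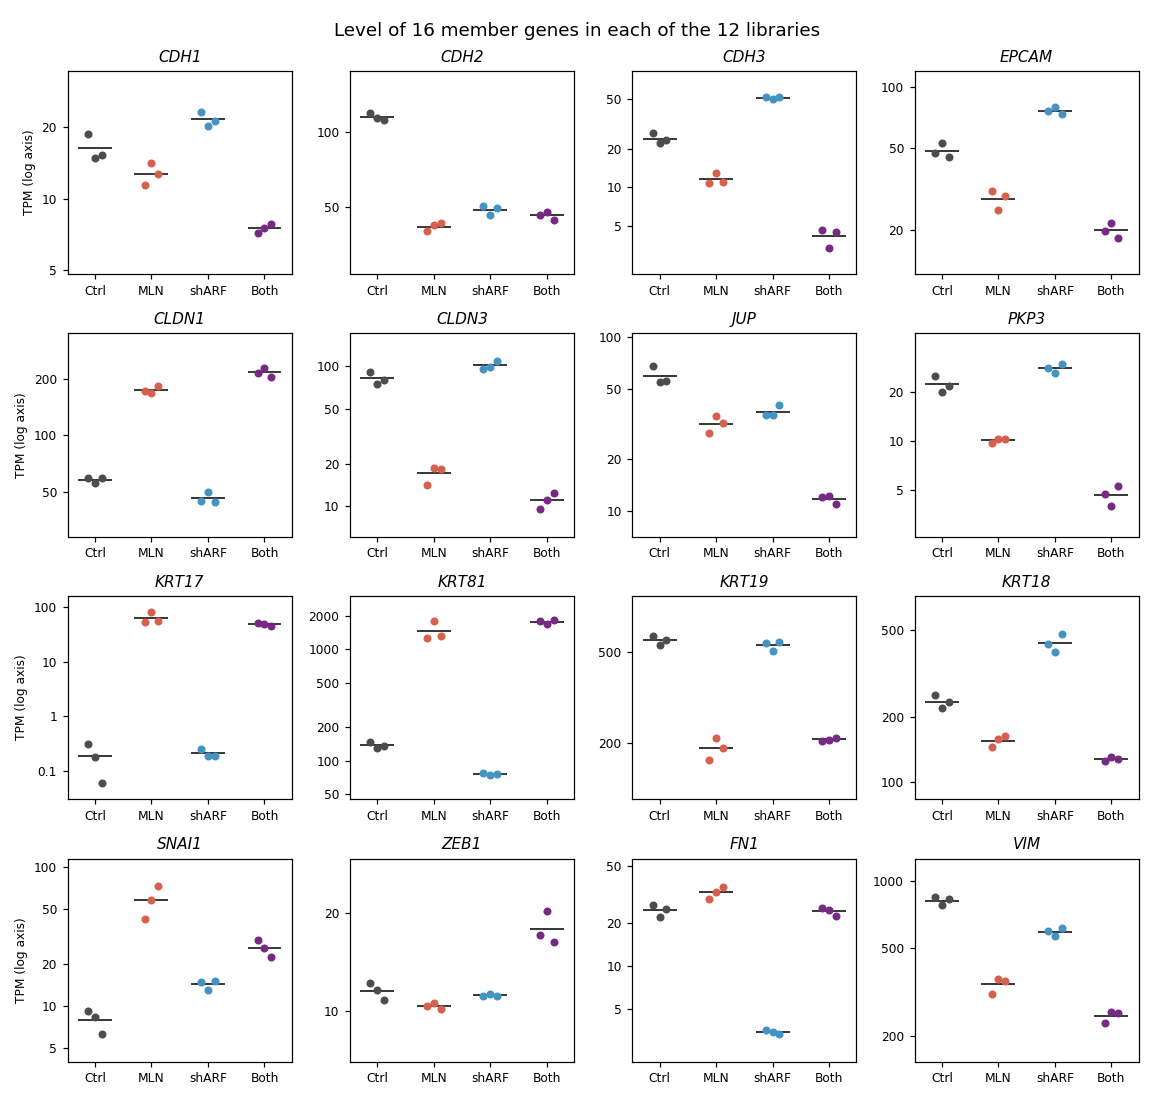
Level of 16 member genes in TPM on a log axis, 1 panel per gene, with 1 point per library and a line at the mean of the 3 libraries of each group. CDH2 sits at 40.0 to 50.3 TPM in MLN, shARF and Both against 111 to 118 TPM in Ctrl, and FN1 at 3.35 to 3.54 TPM in shARF against at least 22 TPM in the other groups.

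The 3 classical cadherins all fell with the drug in PC3 cells but took different courses across the 4 groups. CDH1 is E-cadherin, the adherens junction cadherin of epithelia, and lies on chromosome 16 (chr16:68737292-68835537, plus strand, build GRCh38, 16 exons). It was at 18.7, 14.8 and 15.3 TPM in Ctrl, 11.4, 14.1 and 12.7 TPM in MLN, 23.2, 20.2 and 21.3 TPM in shARF and 7.18, 7.52 and 7.85 TPM in Both. The 4 groups did not overlap, with shARF highest and Both lowest. CDH1 fell by 0.35 ± 0.12 on the log2 scale in PC3 cells (adjusted p = 0.0453) and by 1.51 ± 0.0711 in silenced cells (adjusted p = 1.77e-05). The first of these calls was lost in 6 of 12 alternative settings (adjusted p up to 0.130): with no filter on low values and without any 1 of Ctrl replicate 1, 2 or 3 or MLN replicate 1 or 5.

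CDH3, P-cadherin, which basal epithelial cells carry, is the gene next to CDH1, 9824 bases away. It was at 26.7, 22.3 and 23.7 TPM in Ctrl, 10.9, 13.1 and 11 TPM in MLN, 51.4, 49.8 and 52.0 TPM in shARF and 4.61, 3.34 and 4.43 TPM in Both. The order of the groups was that of CDH1, again with no overlap, over a wider range. CDH3 fell with the drug by 1.05 ± 0.104 in PC3 cells (adjusted p = 0.000282) and by 3.61 ± 0.126 in silenced cells (adjusted p = 6.66e-06), where it was the member that fell most.

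CDH2, N-cadherin, the cadherin of neural and mesenchymal cells, was the most abundant of the 3 in PC3 cells. It was at 118, 114 and 111 TPM in Ctrl, 40.0, 42.2 and 43.0 TPM in MLN, 50.3, 46.6 and 49.4 TPM in shARF and 46.7, 47.8 and 44.4 TPM in Both. Ctrl stood alone, and shARF and Both overlapped. CDH2 fell with the drug by 1.45 ± 0.048 (adjusted p = 7.15e-06) and with silencing by 1.23 ± 0.0407 (adjusted p = 6.46e-05), whereas its log2 fold change in Both vs shARF was -0.08 ± 0.048 (adjusted p = 0.224). CDH2 was 73.9% ± 1.57 (SD, n = 3) of the summed TPM of the 3 cadherins in Ctrl, 63.2% ± 2.0 in MLN, but 40.2% ± 0.188 in shARF against 79.9% ± 1.59 in Both. CDH3 was the largest share in shARF, 42.1% ± 0.843, and the smallest in Both, 7.13% ± 1.25. The ratio of CDH2 to CDH1 was 7.09 ± 0.687 in Ctrl, 3.30 ± 0.260 in MLN, then 2.27 ± 0.0835 in shARF against 6.17 ± 0.458 in Both.

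Among the tight junction genes the claudins moved apart. CLDN1, a sealing claudin, was at 59.3, 55.3 and 59.1 TPM in Ctrl, 172, 168 and 183 TPM in MLN, 44.5, 49.9 and 43.9 TPM in shARF and 215, 229 and 204 TPM in Both. Every library with MLN4924 was above every library without it. CLDN1 rose by 1.59 ± 0.0534 in PC3 cells (adjusted p = 7.35e-06) and by 2.23 ± 0.0681 in silenced cells (adjusted p = 4.31e-06). CLDN3, a claudin of simple epithelia, was at 91.0, 74.8 and 80.5 TPM in Ctrl, 14.2, 18.9 and 18.6 TPM in MLN, 96.5, 99.7 and 109 TPM in shARF and 9.64, 11.2 and 12.5 TPM in Both. Here the drug-treated libraries were the lower ones, with no overlap. CLDN3 fell by 2.25 ± 0.132 (adjusted p = 3.86e-05) and by 3.19 ± 0.103 (adjusted p = 5.26e-06). CLDN4, whose gene lies 29272 bases from CLDN3 on chromosome 7, was at 798, 785 and 727 TPM in Ctrl, 288, 365 and 338 TPM in MLN, 586, 594 and 644 TPM in shARF and 304, 262 and 278 TPM in Both. It fell in both populations as well, by 1.23 ± 0.1 and 1.11 ± 0.0716, and the 6 drug-treated libraries were all below the 6 vehicle ones. CLDN1 thereby went from 6.22% to 31.7% of the summed TPM of the 4 listed claudins in PC3 cells and from 6.0% to 41.2% in silenced cells.

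CLDN7 and OCLN, the gene of occludin, rose with the drug in PC3 cells (log2 fold changes 0.44 ± 0.082 and 0.39 ± 0.0588), and in silenced cells their values were 0.12 ± 0.0664 and 0.00 ± 0.0796, neither called. TJP1, the scaffold ZO-1, fell by 0.44 ± 0.0714 in PC3 cells and had 0.11 ± 0.0809 in silenced cells. TJP3, the related scaffold ZO-3, was low throughout, at 0.958 to 1.56 TPM in Ctrl, 1.08 to 1.32 TPM in MLN, 0.258 to 0.565 TPM in shARF and 0.108 to 0.242 TPM in Both. The silenced cells were below the wt cells in every library. About 14.7% of the 50-base stretches of the CLDN7 transcript also occur in transcripts of another annotated gene, so its reads could be split between them.

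Of the 8 desmosomal genes, 3 rose and 5 fell with the drug in PC3 cells (37.5% and 62.5%, beside 32.2% and 29.4% of all genes), and 2 rose and 5 fell in silenced cells (25.0% and 62.5%, beside 28.3% and 32.8%). JUP, plakoglobin, the catenin shared by desmosomes and adherens junctions, was at 68.4, 54.9 and 55.6 TPM in Ctrl, 28.1, 35.3 and 31.8 TPM in MLN, 35.6, 35.8 and 40.5 TPM in shARF and 12, 12.1 and 10.9 TPM in Both. Either change alone brought JUP below Ctrl, and Both was the lowest with no overlap. JUP fell by 0.91 ± 0.12 in MLN vs Ctrl (adjusted p = 0.000969) and by 1.67 ± 0.0726 in Both vs shARF (adjusted p = 1.34e-05). PKP3, a plakophilin of the desmosomal plaque, was at 25.1, 20.2 and 21.8 TPM in Ctrl, 9.78, 10.3 and 10.3 TPM in MLN, 28.3, 26.2 and 29.8 TPM in shARF and 4.71, 4.01 and 5.28 TPM in Both. Both was again the lowest group, while shARF was above Ctrl. PKP3 fell by 1.13 ± 0.0896 (adjusted p = 0.000117) and by 2.57 ± 0.113 (adjusted p = 1.36e-05).

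PKP1, the most abundant desmosomal member, was at 302, 247 and 261 TPM in Ctrl, 104, 129 and 127 TPM in MLN, 249.8, 240.0 and 246 TPM in shARF and 106, 103 and 95.4 TPM in Both. Ctrl and shARF overlapped, as did MLN and Both, and PKP1 fell with the drug by 1.17 ± 0.114 and 1.27 ± 0.0483. The desmosomal cadherins split. DSC3, a desmocollin, was at 53.2, 50.2 and 50.7 TPM in Ctrl, 13.5, 14.2 and 15.3 TPM in MLN, 40.9, 37.97 and 37.4 TPM in shARF and 17.5, 18.8 and 17.1 TPM in Both. The 4 groups did not overlap, with Ctrl highest and MLN lowest. DSC3 fell by 1.83 ± 0.0618 and 1.12 ± 0.0574 and DSC2 by 0.30 ± 0.0672 and 0.69 ± 0.0716, while DSG2, the desmoglein of simple epithelia, rose by 0.39 ± 0.062 and 0.43 ± 0.0637. DSG2 was 42.8% of the summed TPM of these 3 cadherins in Ctrl and 71.0% in MLN, and 42.3% in shARF and 65.6% in Both. PKP2 rose in PC3 cells by 0.31 ± 0.0802 (adjusted p = 0.0165, and 0.0503 without MLN replicate 5) and had a value of 0.13 ± 0.0559 in silenced cells (adjusted p = 0.0967). DSP, desmoplakin, the plaque protein that binds keratins, was called higher in either population at levels of 0.0602 to 0.298 TPM over the 12 libraries.

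The keratins held the largest changes of the set. KRT17, a keratin of basal cells and of epithelia under stress, was at 0.308, 0.177 and 0.0599 TPM in Ctrl, 54.3, 79.8 and 56.2 TPM in MLN, 0.248, 0.184 and 0.188 TPM in shARF and 51.6, 50.1 and 45.4 TPM in Both. It was near 0 in all 6 vehicle libraries and above 45 TPM in all 6 drug-treated ones. Its log2 fold change was 7.90 ± 0.361 in PC3 cells (adjusted p = 1.73e-05) and 7.33 ± 0.12 in silenced cells (adjusted p = 8.79e-07), figures that depend on the 0.1 TPM added before the logarithm. About 17.4% of the 50-base stretches of KRT17 also occur in transcripts of other annotated genes, so some of its reads could be split. KRT81, a hair keratin, was at 146, 130.3 and 137 TPM in Ctrl, 1263, 1802 and 1321 TPM in MLN, 77.8, 74.0 and 76.3 TPM in shARF and 1809, 1679 and 1834 TPM in Both. The vehicle and drug-treated libraries lay far apart. KRT81 rose by 3.39 ± 0.144 (adjusted p = 1.36e-05) and by 4.54 ± 0.0496 (adjusted p = 3.58e-07). KRT81 shares 38.4% of its 50-base stretches with KRT86, a hair keratin gene that overlaps it on the opposite strand, and the ratio of the 2 in TPM was between group means of 10.7 ± 1.64 (SD, MLN) and 11.9 ± 2.84 (Both), so reads of the pair may not be separable.

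The keratins of simple epithelia went the other way or stayed near their level. KRT19, the most abundant of the 10 member keratins in the vehicle libraries, was at 589.5, 536 and 561 TPM in Ctrl, 168, 208 and 189.7 TPM in MLN, 548, 505 and 553 TPM in shARF and 203, 206 and 210.4 TPM in Both. Ctrl and shARF overlapped, as did MLN and Both. KRT19 fell by 1.58 ± 0.0894 (adjusted p = 3.44e-05) and by 1.37 ± 0.0486 (adjusted p = 6.99e-06). KRT18, partner of KRT8 in the filaments of simple epithelia, was at 251, 219 and 234 TPM in Ctrl, 146, 158 and 163 TPM in MLN, 433, 397 and 478 TPM in shARF and 125, 131 and 128 TPM in Both. The groups did not overlap and came in the order seen for CDH1 and CDH3. KRT18 fell by 0.59 ± 0.0721 (adjusted p = 0.000688) and by 1.76 ± 0.0729 (adjusted p = 1.15e-05). KRT8 itself was at 97.3, 84.1 and 90.5 TPM in Ctrl, 82.9, 98.2 and 98.2 TPM in MLN, 142, 137 and 154 TPM in shARF and 77.7, 83.4 and 79.5 TPM in Both. It was high in shARF, and the other 3 groups lay close together, with MLN overlapping Ctrl and Both. KRT8 fell with the drug in silenced cells by 0.85 ± 0.0555 (adjusted p = 5.68e-05) and had 0.04 ± 0.0896 in PC3 cells (adjusted p = 0.746).

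KRT8 and KRT18 form filaments as a pair, and the ratio of their TPM was 0.386 ± 0.00166 in Ctrl and 0.598 ± 0.0257 in MLN, and 0.332 ± 0.0121 in shARF against 0.625 ± 0.00850 in Both. All 6 drug-treated libraries were above all 6 vehicle libraries in this ratio. Both genes have many processed pseudogenes, and 39.2% of the 50-base stretches of KRT8 and 35.3% of those of KRT18 occur in other annotated transcripts. Their levels are uncertain to that extent.

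Of the other keratins, KRT15, which basal cells express, rose in PC3 cells by 0.98 ± 0.0767 and had 0.24 ± 0.0864 in silenced cells (adjusted p = 0.0523). KRT7, a keratin of glandular epithelia, was at 3.89, 3.87 and 4.08 TPM in Ctrl, 2.02, 2.98 and 3.13 TPM in MLN, 3.88, 3.99 and 3.96 TPM in shARF and 1.21, 1.41 and 1.39 TPM in Both. The drug-treated libraries were the lower ones, Both below MLN. KRT7 fell by 0.55 ± 0.182 and 1.5 ± 0.112, and the call in PC3 cells was lost without any 1 of the Ctrl libraries or MLN replicate 2 (adjusted p up to 0.107). KRT80 was at 17.96, 15.1 and 15.3 TPM in Ctrl, 15.0, 20.3 and 21.8 TPM in MLN, 10.3, 11.2 and 12.1 TPM in shARF and 8.26, 7.26 and 5.44 TPM in Both. Ctrl and MLN overlapped, above shARF and then Both. Its value was 0.22 ± 0.155 in PC3 cells, not called, and it fell by 0.69 ± 0.163 in silenced cells. KRT14 did not exceed 0.453 TPM in any library, and shares 11.3% of its 50-base stretches with KRT16. It was called higher in MLN vs Ctrl, by 1.81 ± 0.338 (adjusted p = 0.00424), a value that ran from 0.37 to 4.04 over the alternative settings. The summed TPM of the 10 keratins was 1053 ± 59.1 (SD) in Ctrl and 2001 ± 339.8 in MLN, and 1217 ± 75.8 in shARF against 2259 ± 76.9 in Both. Within this sum KRT81 went from 13.1% to 72.8% with the drug in PC3 cells and from 6.26% to 78.5% in silenced cells, while KRT19 went from 53.4% to 9.51% and from 44% to 9.15%. These shares leave out keratins that are not members. KRT75 alone was at 1012 to 1169 TPM in Ctrl and 706 to 842 TPM in MLN. In shARF it was at 282 to 309 TPM and in Both at 410 to 427 TPM.

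**Figure D2:**
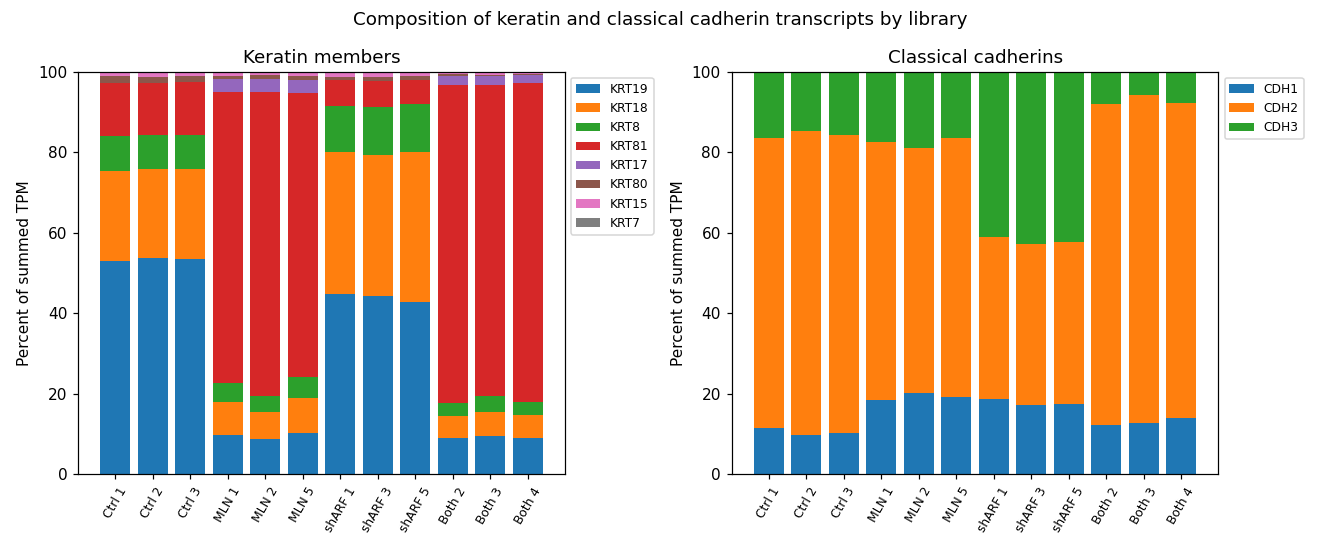
Share of each gene in the summed TPM of the member keratins (left, 8 of the 10 drawn, KRT5 and KRT14 being too small to see) and of the 3 classical cadherins (right), in percent, 1 bar per library. Keratins outside the 10 members, such as KRT75, are not in the sum. KRT81 makes up at least 70.7% of this sum in every drug-treated library and at most 13.1% in every vehicle library. CDH3 takes 41.1% to 42.7% of the sum of the 3 cadherins in shARF.

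The epithelial regulators include factors that keep epithelial genes on and proteins that set epithelial splicing. ELF3, an epithelium-specific ETS factor, was at 29.5, 24.4 and 27.3 TPM in Ctrl, 6.28, 8.18 and 7.47 TPM in MLN, 27.4, 28 and 30.2 TPM in shARF and 5.12, 5.11 and 5.08 TPM in Both. The drug-treated libraries were lower in both populations, and Ctrl and shARF overlapped. ELF3 fell by 1.88 ± 0.12 (adjusted p = 5.21e-05) and by 2.46 ± 0.0556 (adjusted p = 1.87e-06). The splicing regulators ESRP1 and ESRP2, which act on many of the same exons, moved apart. ESRP1 was at 5.42, 4.66 and 5.14 TPM in Ctrl, 5.63, 6.60 and 6.90 TPM in MLN, 1.52, 2.10 and 2.05 TPM in shARF and 5.31, 6.95 and 5.21 TPM in Both. It was low in shARF alone. ESRP1 rose with the drug in silenced cells by 1.57 ± 0.181 (adjusted p = 0.00056), and its rise of 0.32 ± 0.112 in PC3 cells (adjusted p = 0.0465) was lost in 7 of 12 alternative settings (adjusted p up to 0.131), among them leaving out any 1 of the Ctrl libraries or MLN replicate 2 or 5. ESRP2 was at 28.1, 24.0 and 25.5 TPM in Ctrl, 15.5, 19.4 and 19.2 TPM in MLN, 38.8, 38.4 and 41.1 TPM in shARF and 13.4, 15.0 and 14.6 TPM in Both. It was highest in shARF, where ESRP1 was lowest, and the groups did not overlap. ESRP2 fell by 0.52 ± 0.11 in PC3 cells (adjusted p = 0.00682) and by 1.45 ± 0.0582 in silenced cells (adjusted p = 1.04e-05). The ratio of ESRP2 to ESRP1 was 5.10 ± 0.116 (SD) in Ctrl and 2.82 ± 0.106 in MLN, and 21.3 ± 3.82 in shARF against 2.50 ± 0.319 in Both. GRHL1, a grainyhead-like factor, was at 2.37 to 4.08 TPM and rose in PC3 cells by 0.57 ± 0.127. Its relative GRHL2 and OVOL1, both known for holding epithelial identity, stayed at or under 0.0524 TPM in all 12 libraries.

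The EMT transcription factors did not move as a block. SNAI1, Snail, a repressor of E-cadherin, was at 9.18, 8.34 and 6.31 TPM in Ctrl, 42.2, 57.3 and 72.2 TPM in MLN, 14.8, 13.0 and 15.1 TPM in shARF and 29.8, 26.2 and 22.6 TPM in Both. The 4 groups did not overlap, with MLN highest. SNAI1 rose by 2.82 ± 0.229 in PC3 cells (adjusted p = 0.000128) and by 0.86 ± 0.116 in silenced cells (adjusted p = 0.00109). ZEB1, another E-cadherin repressor, was at 12.2, 11.6 and 10.8 TPM in Ctrl, 10.4, 10.6 and 10.1 TPM in MLN, 11.1, 11.3 and 11.2 TPM in shARF and 17.1, 20.3 and 16.3 TPM in Both. Both stood above every library of the other groups, which lay close together. ZEB1 rose with the drug in silenced cells by 0.66 ± 0.089 (adjusted p = 0.00108) and had a log2 fold change of -0.15 ± 0.0668 in PC3 cells (adjusted p = 0.0931). ZEB1 was thus highest in the group where CDH1 was lowest, Both. SNAI1 was instead highest in MLN, and was higher than in Ctrl in shARF, where CDH1 was highest. A link between the levels of these genes was not tested.

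SNAI2, Slug, was at 53.5, 51.9 and 56.2 TPM in Ctrl, 20.2, 20.7 and 24.2 TPM in MLN, 32.1, 31.1 and 25.7 TPM in shARF and 21.9, 25.0 and 20.7 TPM in Both. Like CDH2 it was highest in Ctrl, apart from all other libraries. SNAI2 fell with the drug by 1.31 ± 0.0805 in PC3 cells (adjusted p = 4.55e-05) and by 0.39 ± 0.111 in silenced cells (adjusted p = 0.0236), the latter a call lost in 6 of 12 alternative settings (adjusted p up to 0.0823), among them leaving out Both replicate 2 or 4 or shARF replicate 1 or 3. TWIST1, a basic helix-loop-helix factor, was at 19.6, 18.5 and 17.9 TPM in Ctrl, 49.3, 53.4 and 50.3 TPM in MLN, 19.8, 17.7 and 21.6 TPM in shARF and 31.2, 38.03 and 38.08 TPM in Both. Ctrl and shARF overlapped, below Both and then MLN. TWIST1 rose by 1.44 ± 0.0559 and 0.86 ± 0.11. ZEB2 stayed between 0.140 and 1.16 TPM. In MLN, then, SNAI1 and TWIST1 were higher than in Ctrl while SNAI2 and CDH2 were lower.

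SNAI and ZEB proteins read the E-box letters CACCTG, or CAGGTG on the other strand. RefSeq promoter windows of 250 bases before to 50 after a start site (GRCh38.p14) were at hand for 23 of the 43 members, and 12 of the 23 (52.2%) held the letters in at least 1 window, beside 24.1% of 27305 genes. By window, 14 of 38 (36.8%) held them, beside 20.6% of 35116. The 250 bases before the start site are shown for 4 members whose stretch holds the E-box outside any annotated UTR, because 1 of them is the repressor ZEB1 and the other 3 are junction genes that took different courses. Capitals mark the E-box letters. The positions are chr10:31318167-31318416 (plus strand, ZEB1), chr15:29969050-29969299 (minus, TJP1), chr19:3721487-3721736 (plus, TJP3) and chr18:31497927-31498176 (plus, DSG2).
ZEB1: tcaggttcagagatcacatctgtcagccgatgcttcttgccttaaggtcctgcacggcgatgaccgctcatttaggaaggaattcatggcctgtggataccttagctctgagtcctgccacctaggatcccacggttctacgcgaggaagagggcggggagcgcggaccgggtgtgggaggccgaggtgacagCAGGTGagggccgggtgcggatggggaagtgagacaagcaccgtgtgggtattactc
TJP1: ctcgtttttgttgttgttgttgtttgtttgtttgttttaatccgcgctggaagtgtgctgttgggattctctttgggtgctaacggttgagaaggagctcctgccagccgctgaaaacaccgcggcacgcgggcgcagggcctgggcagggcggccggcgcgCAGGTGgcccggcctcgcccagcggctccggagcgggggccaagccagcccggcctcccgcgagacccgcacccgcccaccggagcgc
TJP3: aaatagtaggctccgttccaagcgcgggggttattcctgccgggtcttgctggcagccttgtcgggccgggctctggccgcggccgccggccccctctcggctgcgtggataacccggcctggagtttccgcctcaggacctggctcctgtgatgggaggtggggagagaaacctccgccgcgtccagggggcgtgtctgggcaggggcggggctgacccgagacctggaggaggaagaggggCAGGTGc
DSG2: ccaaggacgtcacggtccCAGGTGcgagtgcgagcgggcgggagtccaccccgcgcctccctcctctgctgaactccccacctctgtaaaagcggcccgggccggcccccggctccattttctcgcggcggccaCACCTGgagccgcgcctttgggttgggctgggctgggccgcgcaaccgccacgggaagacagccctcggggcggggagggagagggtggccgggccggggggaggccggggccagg
The first E-box letter is at position -57 from the start site in the ZEB1 stretch shown, -88 in TJP1 and -7 in TJP3, and DSG2 has matches at -232 and -116. ZEB1 has a further stretch, not shown, with matches at -242 and -85 from its own start site. Of these 4 members, TJP1 fell and DSG2 rose in PC3 cells, and TJP3 was not called there. Among the 11 tested members with the E-box, 4 rose and 5 fell in MLN vs Ctrl, and among the 11 matched members without it 4 rose and 6 fell. In Both vs shARF the counts were 3 and 5 with the letters, 2 and 6 without. The letters AACCGGTT, read by grainyhead-like factors and the same on either strand, were in no window of the 23 members and in those of 0.165% of genes.

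The mesenchymal markers went different ways. VIM, the intermediate filament vimentin, was at 844, 775 and 825 TPM in Ctrl, 309.6, 361 and 355 TPM in MLN, 595, 565 and 612 TPM in shARF and 228, 255 and 254 TPM in Both. The groups did not overlap, with Ctrl highest and Both lowest. VIM fell with the drug by 1.25 ± 0.0795 in PC3 cells (adjusted p = 5.01e-05) and by 1.27 ± 0.0617 in silenced cells (adjusted p = 1.97e-05). FN1, the matrix protein fibronectin, was at 26.8, 22 and 25.0 TPM in Ctrl, 29.6, 33.1 and 35.9 TPM in MLN, 3.54, 3.46 and 3.35 TPM in shARF and 25.6, 24.5 and 22.5 TPM in Both. FN1 was low in shARF alone, and Both overlapped Ctrl. It rose with the drug by 0.42 ± 0.101 in PC3 cells (adjusted p = 0.0123) and by 2.77 ± 0.0698 in silenced cells (adjusted p = 2.35e-06).

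EPCAM, an epithelial adhesion glycoprotein, was at 47.4, 53.1 and 45.2 TPM in Ctrl, 31.1, 24.9 and 29.1 TPM in MLN, 76.2, 79.7 and 73.5 TPM in shARF and 19.7, 21.5 and 18.3 TPM in Both. The groups did not overlap and stood in the order of CDH1, CDH3 and KRT18. EPCAM fell by 0.78 ± 0.101 (adjusted p = 0.00092) and by 1.95 ± 0.0696 (adjusted p = 7.16e-06). CD44, the hyaluronan receptor often higher in mesenchymal states, fell by 0.92 ± 0.0868 in PC3 cells and 0.35 ± 0.0803 in silenced cells.

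Set side by side, the responses to MLN4924 in the 2 populations, which share no library, had the same direction in the 27 members called in both. Opposite calls were rare among all genes too, with 276 (1.38%) called higher in PC3 and lower in silenced cells and 179 (0.898%) the reverse. In all, 9 members rose in both (22.5% of the 40, beside 22.0% of all genes tested) and 18 fell in both (45.0% beside 22.8%). A further 7 rose and 2 fell in PC3 cells with no call in silenced cells (17.5% and 5.00%, beside 8.87% and 5.75% of all genes). In silenced cells 1, ZEB1, rose and 3 fell with no call in PC3 cells (2.50% and 7.50%, beside 5.42% and 8.61%). Rescaled by medians of ratios, 15 members rose and 19 fell in Both vs shARF, as CLDN7, GRHL1, KRT15, PKP2 and TJP1 were then called higher and the calls of SNAI2 and TJP3 were lost. The sizes of the responses differed for many genes. The interaction, the log2 fold change of Both vs shARF minus that of MLN vs Ctrl, was positive for 10 members and negative for 18 (25.0% and 45.0%, beside 11.2% and 17.1% of all genes), of which 4 and 6 were past 2-fold (3.52% and 4.95%). Rescaled by medians of ratios, the members' counts were 11 and 17, while the share of positive calls over all genes went from 39.5% to 53.5%. The median interaction was -0.37 over the members and -0.09 over all genes.

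Among called members, the negative interactions were largest for CDH3, -2.56 ± 0.167 (adjusted p = 9.53e-07), and SNAI1, -1.95 ± 0.26 (adjusted p = 0.000196). PKP3, at -1.44 ± 0.149, KRT18, at -1.17 ± 0.107, EPCAM, at -1.17 ± 0.128, and CDH1, at -1.16 ± 0.145, came next. All of these but SNAI1 are epithelial genes that fell further in silenced cells, and SNAI1 rose less there. The positive ones were led by FN1, 2.36 ± 0.127 (adjusted p = 2.01e-07), CDH2, 1.38 ± 0.0755 (adjusted p = 2.31e-07), ESRP1, 1.25 ± 0.216 (adjusted p = 0.00115), and KRT81, 1.15 ± 0.156 (adjusted p = 0.000223). CDH2 and SNAI2 (0.92 ± 0.141) fell in PC3 cells and changed less or with no call in silenced cells, from a lower start. For VIM, KRT19, CLDN4, PKP1 and DSG2 the interaction lay between -0.10 and 0.21 and was not called. Rescaled by medians of ratios, that of KRT19 was called positive (adjusted p = 0.0269).

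**Figure D3:**
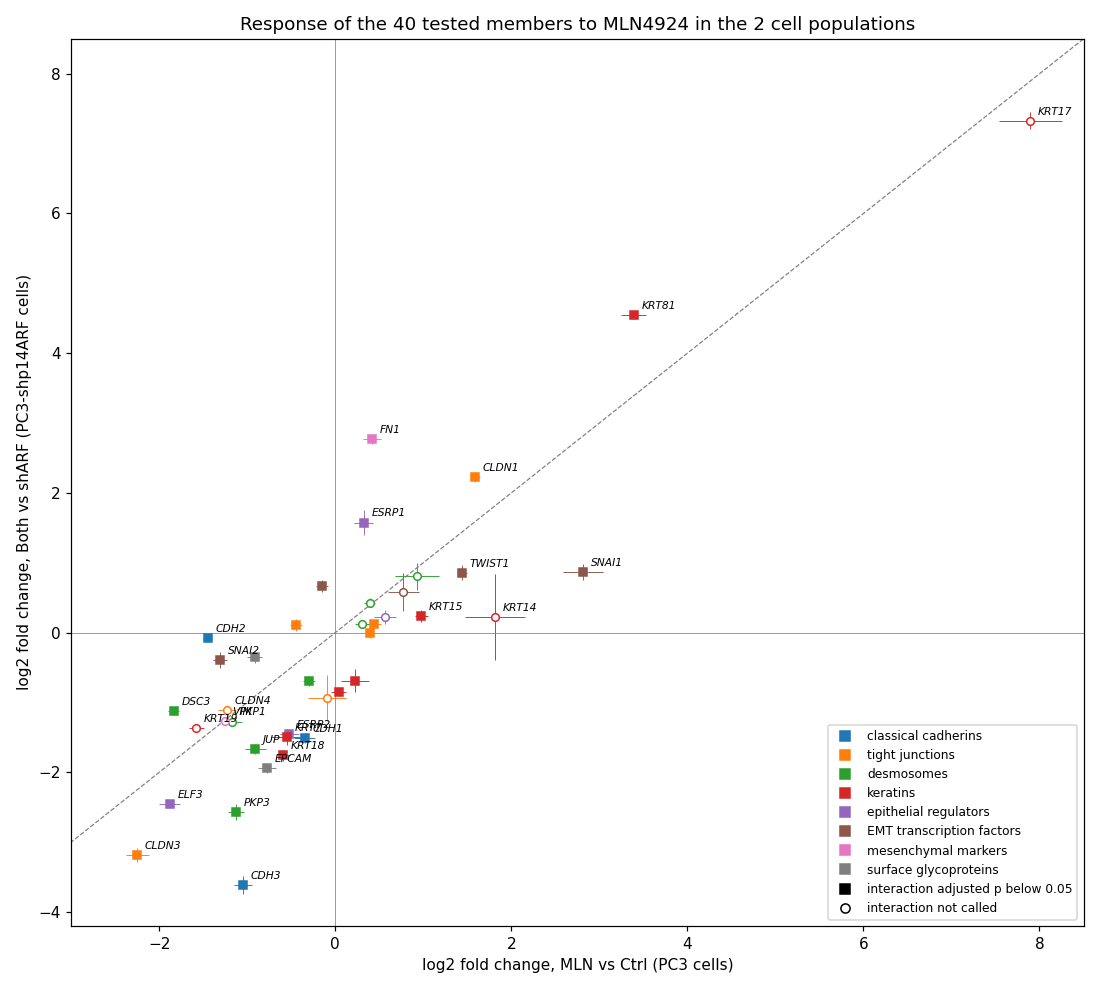
Log2 fold change with MLN4924 in PC3 cells (horizontal axis, MLN vs Ctrl) against that in silenced cells (vertical axis, Both vs shARF) for the 40 tested members, coloured by role, with standard errors as bars and the dashed line marking equal change. Filled squares are the 28 members whose interaction was called. CDH3, PKP3 and CDH1 lie below the line and FN1, ESRP1 and KRT81 above it.

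Silencing of p14ARF without the drug moved these genes in either direction, with epithelial genes on both sides. In shARF vs Ctrl, 12 members rose and 17 fell (30.0% and 42.5% of the 40), beside 21.0% and 20.4% of all genes, and past 2-fold 1 rose and 5 fell (3.87% and 6.60%). The member past 2-fold upward was CDH3, by 1.08 ± 0.0715 (adjusted p = 0.000405). KRT18 rose by 0.89 ± 0.0873, KRT8 by 0.67 ± 0.0709, EPCAM by 0.66 ± 0.0691, ESRP2 by 0.61 ± 0.0661 and DSC2 by 0.56 ± 0.0502, all smaller than 2-fold. SNAI1 also rose, by 0.85 ± 0.156 (adjusted p = 0.00986). CDH1 rose by 0.41 ± 0.107 (adjusted p = 0.0319), a call lost in 6 of 12 alternative settings (adjusted p up to 0.0996), among them leaving out any 1 of the shARF libraries or Ctrl replicate 2 or 3. Downward, FN1 fell by 2.80 ± 0.0828 (adjusted p = 5.11e-05), TJP3 by 1.48 ± 0.304, ESRP1 by 1.39 ± 0.155, CDH2 by 1.23 ± 0.0407 and ZEB2 by 1.11 ± 0.225. The call of TJP3 was lost without Ctrl replicate 3 (adjusted p = 0.0538). CD44 fell by 0.88 ± 0.0483, SNAI2 by 0.87 ± 0.0939, KRT81 by 0.85 ± 0.0484 and JUP by 0.67 ± 0.106. Of the 7 tight junction genes 1 rose, CLDN3, and 5 fell: besides TJP3, CLDN7 fell by 0.61 ± 0.0468, CLDN4 by 0.34 ± 0.0578, TJP1 by 0.34 ± 0.0749 and CLDN1 by 0.33 ± 0.0608. KRT80 fell by 0.52 ± 0.0954, DSC3 by 0.41 ± 0.0447 and DSG2 by 0.15 ± 0.0311. The calls of CLDN3, DSG2 and TJP1 were lost in 7, 5 and 3 of 12 alternative settings (adjusted p up to 0.112, 0.105 and 0.0624).

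Under the drug, silencing had few upward calls. In Both vs MLN, 3 members rose and 19 fell (7.5% and 47.5%), beside 11.8% and 20.6% of all genes. With the libraries rescaled by medians of ratios the split of all called genes moved from 36.4% to 51.4% higher, and the members' counts became 6 and 18. The 3 that rose were ZEB1, by 0.77 ± 0.0939 (adjusted p = 0.00281), CLDN1, by 0.31 ± 0.0645, and DSC3, by 0.31 ± 0.0725. The call of CLDN1 was lost without MLN replicate 2 or Both replicate 2 (adjusted p up to 0.0626) and that of DSC3 without those or MLN replicate 1 or Both replicate 3 (up to 0.0764), and without MLN replicate 2 the counts were 1 and 12. Past 2-fold none rose and 7 fell, beside 2.18% and 6.84% of all genes: TJP3 by 2.32 ± 0.249, CDH3 by 1.49 ± 0.151, KRT80 by 1.44 ± 0.203, JUP by 1.43 ± 0.0976, ZEB2 by 1.3 ± 0.203, PKP3 by 1.11 ± 0.115 and SNAI1 by 1.10 ± 0.21, the last with adjusted p = 0.0119 and 0.0527 without MLN replicate 2. CLDN7 fell by 0.93 ± 0.092 and CDH1 by 0.75 ± 0.0952 (adjusted p = 0.00319).

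The effect of silencing thus had opposite signs with and without the drug for a number of members. CDH1, CDH3, CLDN3, EPCAM, KRT15, KRT18, PKP3 and SNAI1, 8 of the 40 (20.0%), were called higher in shARF vs Ctrl and lower in Both vs MLN, a pattern of 1.84% of all genes tested. CLDN1 and DSC3 had the reverse, as did 1.03% of all genes. The 7 members lower in both comparisons (17.5%, beside 9.53%) were CLDN7, FN1, JUP, KRT80, TJP3, VIM and ZEB2, and none was higher in both, beside 6.15% of all genes. These 2 comparisons share no library. Of the 8, CDH3 kept both calls in every alternative run other than the replicate block, and the other 7 lost at least 1 of them in some alternative. The interaction is also the value of Both vs MLN minus that of shARF vs Ctrl. Its negative sign in each of the 8 therefore follows from how they were picked, and is no separate support. It was called in each of the 8 in all 17 alternatives other than the block.

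**Figure D4:**
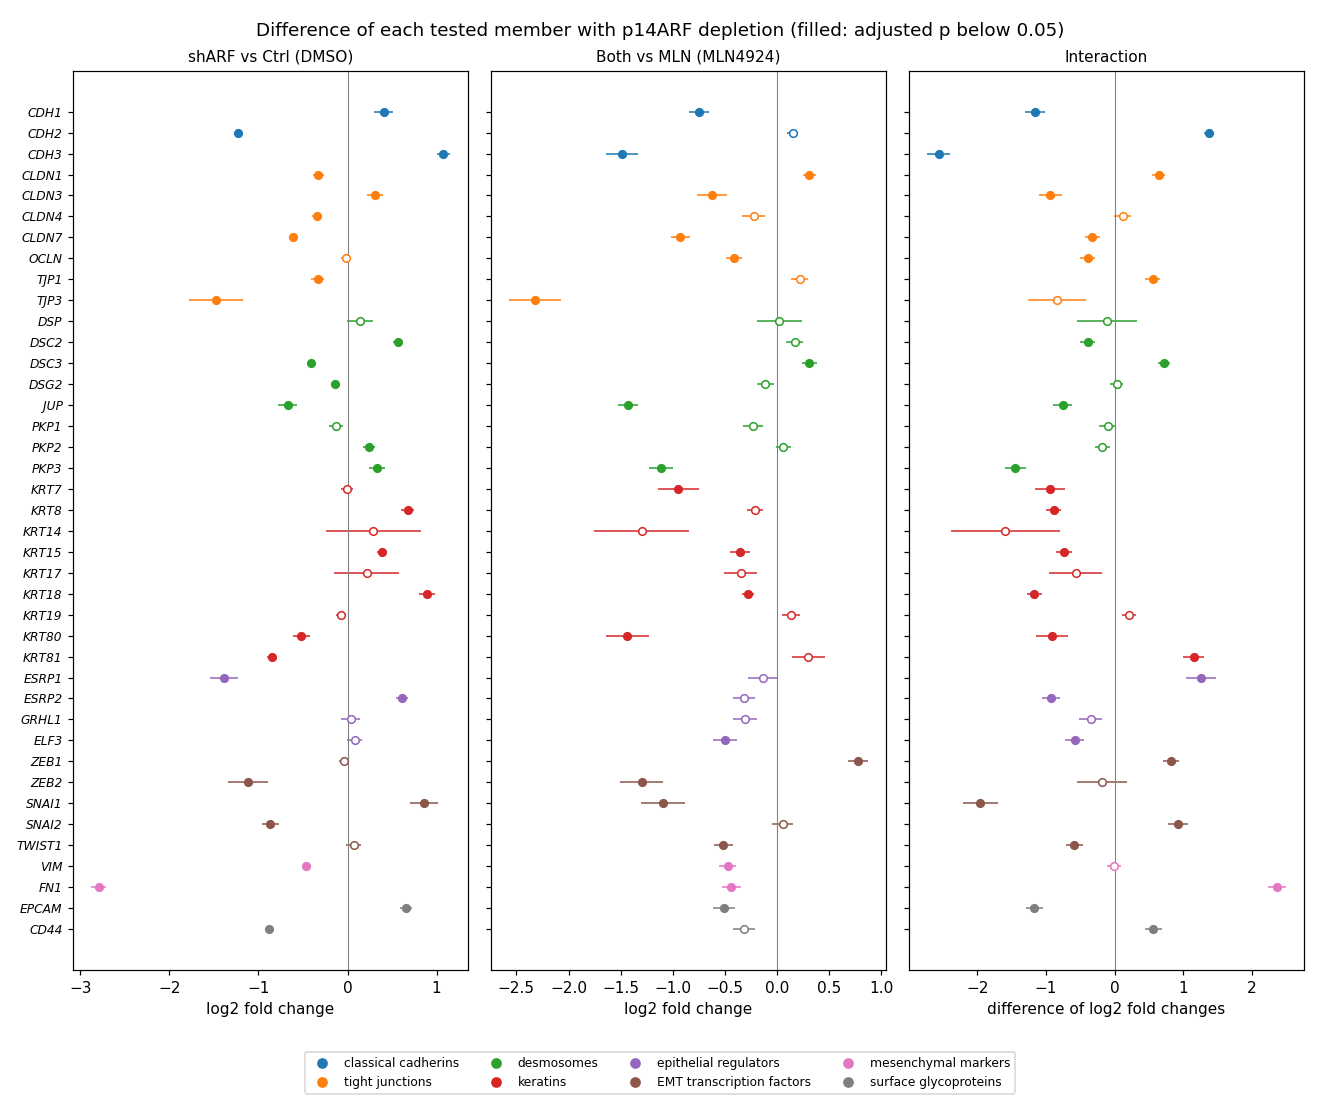
Log2 fold change with p14ARF silencing under DMSO (left, shARF vs Ctrl), under MLN4924 (middle, Both vs MLN) and the interaction (right) for the 40 tested members, with standard errors as bars, filled where adjusted p was below 0.05 and coloured by role. CDH1, CDH3, CLDN3, EPCAM, KRT18 and PKP3 lie to the right of 0 in the left panel and to the left of it in the middle panel.

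Other genes of the same structures, 101 in 6 lists of which 100 were in the table and 78 passed the filter, were called as follows. In MLN vs Ctrl 30 rose and 26 fell (38.5% and 33.3% of the 78, beside 32.2% and 29.4% of all genes), and in Both vs shARF 27 rose and 29 fell (34.6% and 37.2%, beside 28.3% and 32.8%). In shARF vs Ctrl 16 rose and 28 fell (20.5% and 35.9%, beside 21.0% and 20.4%), and in Both vs MLN 11 rose and 26 fell (14.1% and 33.3%, beside 11.8% and 20.6%), the last becoming 20 and 25 when rescaled by medians of ratios. Of the 11 tested adherens genes 3 rose and 5 fell in MLN vs Ctrl (27.3% and 45.5%). CDH13, a cadherin without a cytoplasmic tail, fell by 4.49 ± 0.199 in PC3 cells and fell by 3.91 ± 0.166 in silenced cells, from 9.28 to 11.4 TPM in Ctrl to 0.290 to 0.499 TPM in MLN. CDH11, a mesenchymal cadherin, fell by 2.29 ± 0.0732 with the drug and by 1.58 ± 0.0477 with silencing, as CDH2 did. Of the catenins in the adherens list, CTNNB1 was at 88.2 to 148 TPM and fell with the drug in PC3 cells by 0.50 ± 0.0642. CTNNA1, the actin-linking catenin that PC3 cells are known to have lost, was at 0.737 to 1.77 TPM in all 12 libraries.

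Of the 19 tested genes of tight junctions and polarity, 8 rose and 5 fell in MLN vs Ctrl. These are 42.1% and 26.3%, beside 32.2% and 29.4% of all genes. CGN, cingulin, rose by 1.80 ± 0.116 in PC3 cells, and its value in silenced cells was 0.28 ± 0.168. CGNL1, its paralogue, rose by 2.19 ± 0.138 with silencing and fell with the drug in silenced cells by 1.67 ± 0.16. CLDN12 rose with the drug in both populations, by 1.42 ± 0.0505 and 1.81 ± 0.0996. Of the 8 tested genes of desmosomes and the cornified envelope, 1 rose and 4 fell in MLN vs Ctrl (12.5% and 50%). The plakin DST rose by 1.64 ± 0.0648 and 1.31 ± 0.0845 with the drug. PPL, periplakin, had the order of groups of CDH3: 10.9 to 13.1 TPM in Ctrl, 3.80 to 4.93 TPM in MLN, 28.4 to 30.6 TPM in shARF and 3.20 to 3.76 TPM in Both. Unlike CDH3 it was not called in Both vs MLN, where its value was -0.32 ± 0.132 (adjusted p = 0.114).

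Of the 9 other keratins tested, 4 rose and 3 fell in MLN vs Ctrl (44.4% and 33.3%, beside 32.2% and 29.4% of all genes). KRT6B, a keratin of stressed and stratified epithelia, was at 131 to 150.5 TPM in Ctrl, 6.92 to 7.91 TPM in MLN, 0.477 to 0.966 TPM in shARF and 0.459 to 0.768 TPM in Both. With silencing KRT6B fell by 7.37 ± 0.246, more than any other listed gene (adjusted p = 6.6e-05). KRT16, a partner of KRT6 keratins, went the other way and was at 0.0614 to 0.121 TPM in Ctrl, 2.33 to 3.95 TPM in MLN, 0.636 to 0.705 TPM in shARF and 20.5 to 21.9 TPM in Both. KRT16 rose with the drug by 4.13 ± 0.265 and 4.78 ± 0.0851 and was highest in Both.

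Of the 17 tested genes of the wider epithelial programme, 10 rose and 3 fell in MLN vs Ctrl (58.8% and 17.6%, beside 32.2% and 29.4% of all genes). In Both vs MLN 2 rose and 11 fell (11.8% and 64.7%, beside 11.8% and 20.6%), and the counts were 2 and 11 when rescaled as well. AP1M2, an adaptor subunit of epithelial sorting, was at 0.135 to 0.275 TPM in Ctrl, 9.30 to 10.8 TPM in MLN and 2.06 to 3.52 TPM in Both, and was listed at 0 in shARF. S100A14 rose with the drug by 4.76 ± 0.167 and 3.50 ± 0.106. EHF, an epithelial ETS factor like ELF3, fell by 2.16 ± 0.114 with the drug in PC3 cells, by 3.22 ± 0.131 in silenced cells and by 1.77 ± 0.0708 with silencing. Of the 14 tested EMT and mesenchymal genes, 4 rose and 6 fell in MLN vs Ctrl (28.6% and 42.9%, beside 32.2% and 29.4%), and 2 rose and 8 fell in shARF vs Ctrl (14.3% and 57.1%, beside 21.0% and 20.4%). TAGLN, the actin-binding protein transgelin, rose with the drug by 3.99 ± 0.279 and 4.43 ± 0.252, NT5E, the ectoenzyme CD73, fell by 1.58 ± 0.068 and 1.68 ± 0.0487, and ENG, endoglin, fell with silencing by 1.89 ± 0.16.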

How the data were processed

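RNA-seq was run on 4 groups of 3 libraries. Per the methods of the study, the authors trimmed adapters and mapped reads to hg38 with default settings in CLC Genomics Workbench 23.0.5, and quantified genes on Ensembl GRCh38 annotation 112. The deposited table holds TPM, summing to 1000000 in each library, so depth is unknown and no count test was run. Strand use in counting is not given in the sources used here.

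The members, the other gene lists and the tests were chosen with earlier results of these data known. All 43622 genes were read, and the 19932 that averaged 0.1 TPM or more were tested with limma 3.58.1 (R 4.3.3) on log2(TPM + 0.1), Benjamini-Hochberg adjusted over all of them and called at adjusted p below 0.05. Each pairwise comparison used its 6 libraries, and the interaction all 12. The value in every library was given for the 25 members averaging 1 TPM or more with a 2-fold call in a comparison or the interaction and, whatever their values, for CDH1, CDH2, VIM, FN1, ZEB1, EPCAM, KRT8 and KRT18. From each of the other lists, up to 3 genes with the largest 2-fold change in MLN vs Ctrl or shARF vs Ctrl were named. CTNNA1, CTNNB1 and KRT75 were added after their values were seen. The test was run first on simulated data. Alternatives were other pseudocounts, filters, scaling, 1 fit of all libraries, a replicate block and leaving out each library. Replicate numbers were taken from the column names. Over 10 same-numbered pairs the correlations of deviations were -0.0457 to 0.0222, so the numbers were not used to pair. Positions and transcript overlaps came from GENCODE 44, and promoters from RefSeq.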

Additional observations from a re-analysis of the deposited data

Results flagged for a closer look

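In 28 members the response to MLN4924 differed between silenced and PC3 cells by the interaction test of limma across all genes, with the value below 0 where the log2 fold change was lower in silenced cells. The 18 negative values were those of CDH3 (-2.56), SNAI1 (-1.95), PKP3 (-1.44), EPCAM (-1.17), KRT18 (-1.17), CDH1 (-1.16), KRT7 (-0.94), CLDN3 (-0.94), ESRP2 (-0.93), KRT80 (-0.91), KRT8 (-0.89), JUP (-0.76), KRT15 (-0.74), TWIST1 (-0.59), ELF3 (-0.58), DSC2 (-0.40), OCLN (-0.39) and CLDN7 (-0.32). The 10 positive values were those of FN1 (2.36), CDH2 (1.38), ESRP1 (1.25), KRT81 (1.15), SNAI2 (0.92), ZEB1 (0.82), DSC3 (0.72), CLDN1 (0.64), CD44 (0.56) and TJP1 (0.55). CLDN7 was the member of these 28 whose call was lost in most alternatives, 11 of 17, with adjusted p between 0.0298 and 0.144. With 3 libraries a group, single libraries were not screened for standing apart.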

How the results depend on the processing

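Over 200 gene and comparison pairs and the alternatives other than the replicate block, 2580 values were recomputed. Of these, 2445 kept their side of the threshold, 110 lost a call, 25 gained one and 0 of the called values changed sign. Values without a call could change sign, as KRT8 did in MLN vs Ctrl (log2 fold change -0.016 to 0.118). With a pseudocount of 1, the 2-fold lower members were 3 in shARF vs Ctrl and 4 in Both vs MLN, and with a mean of at least 1 TPM they were 3 in shARF vs Ctrl. Scaling by medians of ratios gave 6 members higher in Both vs MLN. Leaving out 1 library at a time gave 1 to 3 members higher and 12 to 22 lower in Both vs MLN (1 higher without MLN replicate 2 or Both replicate 2, 12 lower without MLN replicate 2), and 6 to 10 with a 2-fold negative interaction (10 without MLN replicate 1). The cause of these shifts was not tested. With a replicate block, limma called 7 members higher and 11 lower in MLN vs Ctrl, 0 higher and 0 lower in shARF vs Ctrl (2-fold: 0 and 0, and 27 of 40 at an unadjusted p under 0.05), and a negative interaction in 10. The block leaves fewer residual degrees of freedom, and the numbers did not pair the libraries. It could not be fitted for Both vs shARF and Both vs MLN, whose groups share 1 number each. Among all genes the block called 0 in shARF vs Ctrl, with 7757 at an unadjusted p under 0.05. TPM carry no depth, so no counting error or limit of detection can be given.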
